A study of Mus musculus with 34 samples.

Results

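Medial gastrocnemius, a mixed calf muscle, was taken from muscle glycogen synthase knockout mice (MGSKO) and from wild-type mice (WT), both at 3 months of age, and its RNA was read on Affymetrix mouse arrays. These 8 arrays (3 MGSKO and 5 WT) were taken from the 34 arrays of the series by genotype, tissue and age as labelled, and all 22626 probe sets other than the Affymetrix controls were considered. No drug or diet is labelled, and the strain, C57BL6/129SV, is labelled for the tibialis arrays only. Set beside them were tibialis of MGSKO and WT mice at 3 months (4 and 4 arrays), liver of WT mice at 3 months (4 arrays), and medial gastrocnemius of GSL30 mice, labelled as overexpressing glycogen synthase, and of WT mice at 8 months (5 and 5 arrays). Whether the arrays come from separate animals is not labelled, so p-values measure the spread between these arrays, which may be technical. Genotypes are as labelled, and neither the knockout allele nor the promoter of the GSL30 transgene is described there.

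Glycogen synthase adds glucose units to the growing glycogen chain. Gys1 encodes the isoform of skeletal muscle and most other tissues, and Gys2 the isoform of liver. Gastrocnemius holds mostly fast fibres, which draw on glycogen for short bursts of force, beside slow fibres, which are rich in mitochondria and capillaries and carry their own set of myosins, troponins and calcium pumps.

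All values are deposited intensities on a linear scale. A difference is MGSKO minus WT on the log2(value + 50) scale with its standard error (SE) from limma, n is 3 and 5 throughout, and a probe set was called where the Benjamini-Hochberg adjusted p was under 0.05 among the 13576 probe sets bright enough to be tested. "Separated" below means that no MGSKO array lies within the range of the WT arrays.

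Of the 8 arrays, some stood apart before genotype was considered. Skeletal muscle fibre markers were bright in all 8, with a mean log2 level over 11 genes of 15.04 to 16.91. Liver transcripts were present in all of them too, at levels that differed within each genotype. Over 472 probe sets bright in WT liver, the median level was 17.8, 25.5, 5.66, 26.9 and 3.03% of WT liver in the WT arrays and 8.26, 3.80 and 2.90% in the MGSKO arrays, against 0.910 to 1.23% in WT tibialis. WT replicates 1, 2 and 4 were thus the highest, and WT replicates 3 and 5 lay within the range of the MGSKO arrays. WT replicate 2 also differed in its brightest values. Over the 56 probe sets with a mean above 30000 in the other 7 arrays, its median ratio to the other arrays was 2.07, against 0.745 to 1.16 for each of the others, and its highest value was 310986, against 49447 to 73825. Results on liver-related or very bright genes are therefore given with and without these arrays or probe sets.

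**Figure D1:**
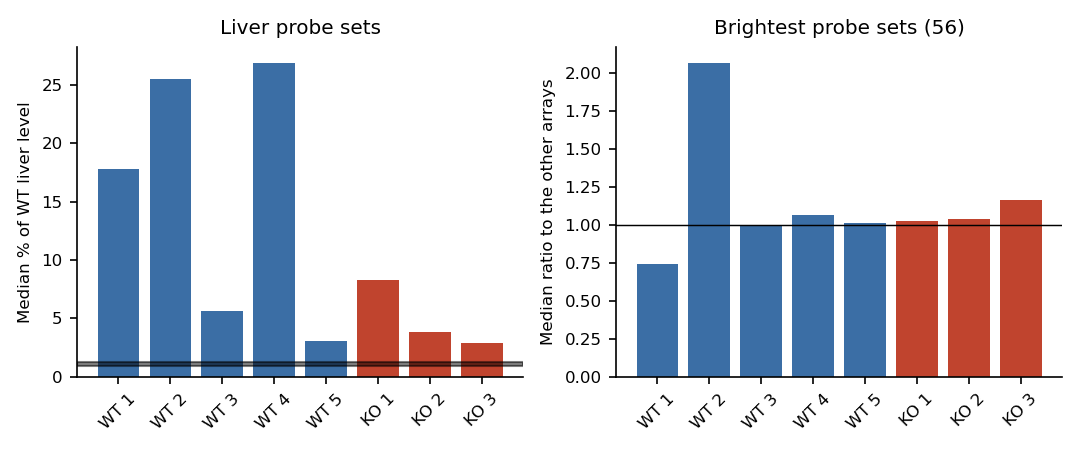
Left, the median level of 472 liver probe sets as a percentage of the WT liver level in each 3-month gastrocnemius array; the grey band spans the 4 WT tibialis arrays (0.910 to 1.23%). Right, the median ratio of each array to the other arrays, WT replicate 2 left out of the denominator, over 56 very bright probe sets; WT replicate 2 stands at 2.07 and the other arrays at 0.745 to 1.16.

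MGSKO gastrocnemius showed a small set of called changes. Of 13576 probe sets 20 were called (0.147%), 6 higher in MGSKO (0.0442%) and 14 lower (0.103%), and 17 of them differed by over 2-fold. With the arrays set to a common median the split was 1 higher and 9 lower. They name 6 genes that rose and 8 that fell, and 2 of the lower probe sets have no symbol in the annotation used. All 20 were separated, as were 9.98% of all tested probe sets (7.26% higher and 2.72% lower), and 11.4% had an unadjusted p under 0.05. With the 1993 tested probe sets over 2-fold brighter in WT liver than in WT tibialis left out, 19 of 11583 were called (0.164%), and these were all in the first set; 10.3% were separated. Without the filter on dim probe sets, 7 of 22626 were called (0.0309%), those of Gys1, Odc1, 1700001O22Rik and 1 of Dkk3. Leaving out any of the other 7 arrays gave 7 to 10 calls, and 6 of the 8 fits without 1 array had 0 probe sets called higher. Without WT replicate 2, 25 were called (11 higher and 14 lower) and 18 of the 20 were among them. Without the 4 arrays richest in liver transcripts, 4 were called and 3 of the 20 were among them, with 2 arrays left in each group.

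Gys1 itself checks the labels. Its brighter probe set, 1416737_at, fell by 5.17 (SE 0.25, adjusted p = 7.22e-05), with every WT array at 3955 or more and every MGSKO array at 165 or less. Its dimmer probe set, 1450196_s_at, read 2624, 2333, 2983, 1796 and 2804 in WT and 11.2, 160.4 and 22 in MGSKO. It fell by 4.69 (SE 0.37, adjusted p = 0.00200). The MGSKO values lie near the pseudocount, which therefore sets the size of both differences in part: with pseudocounts of 1 and 200 they were -5.83 and -4.14 for the brighter probe set and -6.12 and -3.38 for the dimmer. The MGSKO arrays lay near the level of the brighter probe set in WT liver (mean 56.8), a tissue that uses Gys2. Whether either probe set lies in the disrupted part of the gene is not labelled. Gys2, by 1 probe set under the filter, read 334.5 ± 268 (SD) in WT and 186.8 ± 99.7 in MGSKO and was not tested.

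Odc1, which encodes the first and rate-limiting enzyme of polyamine synthesis, fell by all 3 of its called probe sets. The brightest, 1438761_a_at, read 12312, 13141, 12120, 10637 and 13522 in WT and 2567, 3477 and 2852 in MGSKO. It fell by 2.05 (SE 0.15, adjusted p = 0.00112), and the others fell by 1.63 (SE 0.14, adjusted p = 0.00264) and 1.45 (SE 0.12, adjusted p = 0.00259). The highest MGSKO array was far below the lowest WT array in each. Among the 7 tested polyamine genes Odc1 was the only one called. Srm, spermidine synthase, was separated higher (0.28, adjusted p = 0.401) and is brighter in liver.

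Secreted signals and growth control were among the functions of the genes that fell. Dkk3, a secreted relative of the Wnt inhibitors, read 1232, 1036, 732, 877 and 1133 in WT and 229.7, 188.9 and 205.5 in MGSKO by 1417312_at. It fell by 2.01 (SE 0.18, adjusted p = 0.00264), and by 1.64 (SE 0.23, adjusted p = 0.0392) by its other called probe set. Fgfbp1, a secreted carrier that releases fibroblast growth factors from the matrix, read 494, 772, 844, 481 and 958 in WT and 150.4, 130.6 and 175.8 in MGSKO. Its WT arrays were spread widely while the MGSKO arrays lay close together, and it fell by 1.87 (SE 0.24, adjusted p = 0.0350). Ddit4l, an inhibitor of mTOR signalling, read 8094, 6544, 10665, 6449 and 7042 in WT and 2937, 2655 and 3183 in MGSKO by 1451751_at. It fell by 1.37 (SE 0.18, adjusted p = 0.0392). Its second probe set was also separated lower but was not called (-1.18, adjusted p = 0.196). Of the 25 tested growth and atrophy genes Ddit4l was the only one called. Gadd45g, a stress-induced growth arrest gene, and Gadd45a were separated lower (-1.37 and -0.75), and Akt1, Mtor and Foxo3 were separated higher (0.53, 0.38 and 0.38), without a call.

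Ppp1r1a, which encodes an inhibitor of protein phosphatase 1, the phosphatase that activates glycogen synthase, read 958, 1487, 2092, 1777 and 1492 in WT and 366.7, 481.3 and 475.7 in MGSKO. It fell by 1.68 (SE 0.23, adjusted p = 0.0392). Gdap1, a mitochondrial outer membrane protein mutated in a peripheral neuropathy, fell by 1.12 (SE 0.16, adjusted p = 0.0454) from a mean of 471 to a mean of 189. 1700001O22Rik fell by 1.70 (SE 0.16, adjusted p = 0.00388) from 643 ± 59.2 to 166 ± 42.6. The 2 probe sets without a symbol were 1416835_s_at, which fell by 1.73 (SE 0.21, adjusted p = 0.0224), and 1422560_at, which fell by 0.99 (SE 0.13, adjusted p = 0.0378) and is the only called probe set brighter in liver.

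The genes that rose belong to fatty acid handling, pH control and the contractile apparatus. Mid1ip1, an activator of acetyl-CoA carboxylase, read 2151, 1397, 2467, 1895 and 2337 in WT and 5204, 5140 and 5239 in MGSKO. It rose by 1.35 (SE 0.19, adjusted p = 0.0392), and the MGSKO arrays differed from each other by far less than the WT arrays did. Aacs, acetoacetyl-CoA synthetase, read 354, 458, 301, 275 and 355 in WT and 1134, 874 and 755 in MGSKO, and rose by 1.28 (SE 0.19, adjusted p = 0.0454). Tecr, the last reductase of very long chain fatty acid elongation, rose by 0.86 (SE 0.12, adjusted p = 0.0392) by 1416352_s_at, from 8779 ± 400 to 16045 ± 1287. Its second probe set was separated higher but not called (0.64, adjusted p = 0.152). Car14, a membrane carbonic anhydrase, read 1764, 1658, 1630, 1747 and 1574 in WT and 3129, 3347 and 2977 in MGSKO and rose by 0.89 (SE 0.12, adjusted p = 0.0351). Speg, a kinase that organises the membrane junctions for calcium release, rose by 1.15 (SE 0.17, adjusted p = 0.0453) by 1451886_at. It was called by 1 of 3 tested probe sets, and a second, 1425968_s_at, was separated higher (adjusted p = 0.138). The third, 1417305_at, was not called.

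**Figure D2:**
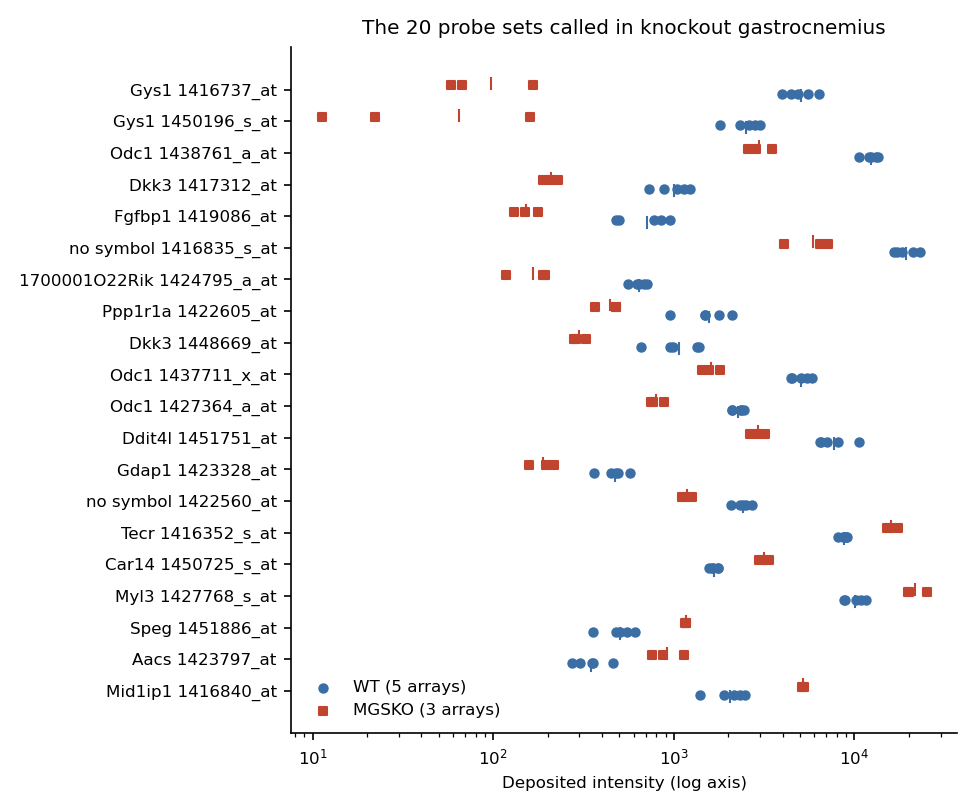
The 20 called probe sets, 1 row each, with deposited intensity on a log axis. Circles are the 5 WT arrays, squares the 3 MGSKO arrays and short lines the group means; in each row the groups are separated, with the widest gap for Gys1.

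Beyond Gys1 and Ppp1r1a, the machinery of glycogen metabolism showed no further call. Of 26 tested genes 2 were called, 4 were separated higher and 18 stood higher, with a median difference of 0.13 against 0.05 over all tested probe sets. Of all tested probe sets 7.26% were separated higher and 56.5% stood higher, or 63.6% without those brighter in liver. Stbd1, which tethers glycogen to membranes for its breakdown in lysosomes, read 868, 923, 796, 954 and 827 in WT and 1959, 1364 and 1844 in MGSKO (0.93, SE 0.15, adjusted p = 0.0758). Gbe1, the branching enzyme, read 868, 501, 627, 672 and 696 in WT and 1297, 1156 and 1365 in MGSKO (0.89, SE 0.17, adjusted p = 0.133). Both were separated higher and short of the threshold. So were Ppp1r3c, a subunit that brings protein phosphatase 1 to glycogen (0.56, adjusted p = 0.318), and Ppp1cc, a catalytic subunit of that phosphatase (0.32, adjusted p = 0.398). The groups overlapped for Gyg, which encodes the protein primer glycogenin (0.32, SE 0.15), and for Pygm, muscle phosphorylase (0.12, SE 0.15). They overlapped also for all 5 tested subunits of phosphorylase kinase, the enzyme that switches phosphorylase on.

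Most genes of slow fibres had separated, higher values in MGSKO, with a single call. Of 17 tested genes 15 stood higher and 12 were separated higher, against 7.26% of all tested probe sets, and none was separated lower; the median difference was 0.76. None of the 17 is over 2-fold brighter in liver. The mean log2 level over the list was 12.21, 12.22, 11.85, 12.09 and 12.58 in the WT arrays and 12.93, 12.79 and 12.61 in the MGSKO arrays, so the groups did not overlap but WT replicate 5 and MGSKO replicate 3 lay close. The same 12 of 17 count was found without WT replicate 2, where 9.12% of all probe sets were separated higher, and without the 4 arrays richest in liver transcripts, where 24.5% were. Genes separated over all 8 arrays stay separated when arrays are left out. These 2 counts could thus not fall below 12, and they do not test the pattern.

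The light and heavy chains of slow myosin show the pattern. Myl3, the slow essential light chain, read 8840, 11531, 8728, 10261 and 10810 in WT and 25156, 19708 and 20131 in MGSKO by 1427768_s_at. It rose by 1.11 (SE 0.15, adjusted p = 0.0392), and its 2 other tested probe sets were separated higher but not called. Myl2, the slow regulatory light chain, read 11911, 17942, 10571, 13039 and 14459 in WT and 27572, 21354 and 22326 in MGSKO (0.82, SE 0.19, adjusted p = 0.199). Myh7, the slow myosin heavy chain, read 3581, 2112, 1675, 3166 and 4903 in WT and 7383, 5482 and 5556 in MGSKO (1.07, SE 0.32, adjusted p = 0.302). In each the MGSKO arrays were the 3 highest, while the WT arrays of Myh7 were themselves widely spread.

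Thin filament and calcium-handling members with separated values were also highest in the 3 MGSKO arrays. Tnnt1, slow troponin T, read 3206, 2909, 1430, 3360 and 4552 in WT and 8021, 5228 and 6550 in MGSKO (1.15, SE 0.33, adjusted p = 0.286). Tnnc1, troponin C of slow and cardiac muscle, read 4703, 4049, 2681, 4235 and 6511 in WT and 10951, 7668 and 8441 in MGSKO (1.06, SE 0.26, adjusted p = 0.238). WT replicate 3 was the lowest and WT replicate 5 the highest of the WT arrays for both, as for Myh7. Tnni1, slow troponin I, Tpm3, slow tropomyosin, and Atp2a2, the slow calcium pump, were separated higher by 0.86, 0.87 and 0.76. Pln, the pump's inhibitor, Casq2, the calcium store protein of slow and cardiac muscle, and Myoz2, a slow Z-disc protein, were separated higher by 0.50, 0.55 and 0.83. Actn2, an actin crosslinker of the Z-disc, was separated higher by 0.48, and the groups overlapped for Ankrd2, Csrp3, Hspb7, Mb and Sln.

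Promoters of the separated slow genes were searched because these genes lie together in the arrays, and 3 of them are shown. RefSeq promoters (build GRCm38.p6, 250 bases before the start of transcription and 50 after it) were at hand for 11 of the 12 genes, all but Atp2a2. The capitals mark the M-CAT motif, CATTCC on either strand, known as a binding site of TEAD factors, and the CArG box, known as a binding site of serum response factor.
Myl3, chr9:110763428-110763727, plus strand: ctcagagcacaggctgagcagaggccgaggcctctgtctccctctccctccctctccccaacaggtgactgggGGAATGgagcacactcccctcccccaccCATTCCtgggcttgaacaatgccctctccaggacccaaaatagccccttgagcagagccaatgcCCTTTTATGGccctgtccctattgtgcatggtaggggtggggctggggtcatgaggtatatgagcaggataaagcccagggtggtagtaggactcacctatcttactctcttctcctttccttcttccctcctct
Myh7, chr14:54994577-54994876, minus strand: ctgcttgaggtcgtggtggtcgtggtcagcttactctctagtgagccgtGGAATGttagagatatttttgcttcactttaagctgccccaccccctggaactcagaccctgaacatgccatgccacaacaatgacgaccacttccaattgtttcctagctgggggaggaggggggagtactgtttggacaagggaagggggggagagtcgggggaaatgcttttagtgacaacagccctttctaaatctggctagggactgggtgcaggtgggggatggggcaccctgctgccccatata
Tnnc1, chr14:31208062-31208361, plus strand: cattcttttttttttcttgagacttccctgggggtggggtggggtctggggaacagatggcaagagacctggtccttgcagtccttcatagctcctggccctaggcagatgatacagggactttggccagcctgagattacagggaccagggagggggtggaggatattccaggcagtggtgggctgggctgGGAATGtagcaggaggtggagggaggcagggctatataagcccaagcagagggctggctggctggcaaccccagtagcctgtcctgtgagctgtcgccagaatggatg
M-CAT was found in 3 of the 11 genes, these 3, and in 16.6% of 27025 genes with such promoters (14.7% of 32851 promoters). In Myl3 it begins at -177 and -149 from the start, in Myh7 at -201 by the promoter shown and in Tnnc1 at -58. Myh7 has a second promoter in the set, chr14:54994500-54994799, with another start, and M-CAT was not found in it. A gene was counted where any of its promoters held the motif. The CArG box was found in 1 of the 11, Myl3, beginning at -85, and in 1.81% of genes. Of the other motifs searched on both strands, the MEF2 site was found in 2 of the 11 (3.7% of genes), TATAAA in 3 (15.7%), the E-box CACGTG in 1 (8.09%) and TGACG in 2 (23%). The full cAMP response element, TGACGTCA, which contains TGACG, was found in 0 (2.03%). A match describes these letters only.

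Fast fibre genes gave no call (2 of 16 had an unadjusted p under 0.05 by limma), and the sign of their median depended on 1 array. Of the 16 tested genes 1 was separated, Casq1, the calcium store protein of fast fibres, which read 16525, 18847, 21756, 21295 and 20735 in WT and 26032, 23036 and 31513 in MGSKO (0.43, SE 0.15, adjusted p = 0.360). The median was -0.18 with all arrays and 0.15 without WT replicate 2, and it was also above 0 with quantile normalization (0.04), array weights (0.19), the hepatocyte score as covariate (0.12) and without the 4 arrays richest in liver transcripts (0.14). For Myh4, the fastest myosin heavy chain, WT replicate 2 read 173644 and the other WT arrays 34473 to 49104, with the MGSKO arrays at 42759 to 51782. Myh2, the heavy chain of oxidative fast fibres, read 21965, 20275, 22210, 18157 and 25136 in WT and 27548, 25008 and 30851 in MGSKO (0.37, SE 0.15, adjusted p = 0.398), an overlap by 1 array.

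**Figure D3:**
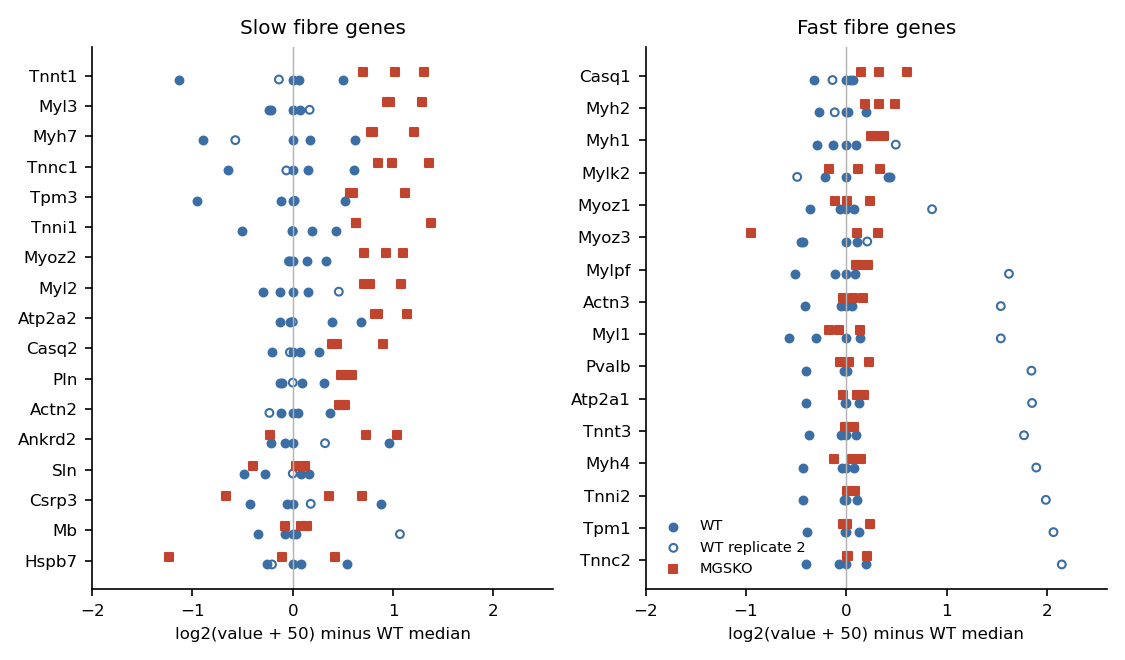
Slow fibre genes (17) and fast fibre genes (16) in each array as log2(value + 50) minus the WT median of that gene, ordered by the MGSKO minus WT difference. Squares are MGSKO arrays, filled circles WT arrays and open circles WT replicate 2, which lies apart for the brightest fast fibre genes; 12 slow genes and 1 fast gene were separated higher.

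Markers of vessels and Schwann cells stood higher in the MGSKO arrays, as slow fibre genes did, and no marker list held a call. The counts are read against 7.26% of all tested probe sets separated higher and 56.5% standing higher, or 63.6% without those brighter in liver. Endothelial markers stood higher in 11 of 13 tested genes, with 6 separated higher, a median of 0.34 and 0 calls by limma (6 with an unadjusted p under 0.05). Cdh5, the adhesion molecule of endothelial junctions, read 1714, 784, 1580, 1267 and 1538 in WT and 3970, 2682 and 2838 in MGSKO (1.20, SE 0.26, adjusted p = 0.181). Smooth muscle and pericyte markers stood higher in 9 of 9, with 5 separated higher, a median of 0.39 and 0 calls (5 with an unadjusted p under 0.05). Myh11, smooth muscle myosin, read 668, 670, 614, 742 and 613 in WT and 1571, 1176 and 1190 in MGSKO (0.93, SE 0.14, adjusted p = 0.0597), just short of the threshold. Schwann cell markers stood higher in 4 of 4 tested genes, and Pmp22 and Mbp, both myelin proteins, were separated higher by 0.54 and 0.55. Mean log2 levels were 10.26 to 10.61 in WT and 10.81 to 10.92 in MGSKO for the endothelial list, 10.20 to 10.78 and 10.94 to 11.01 for smooth muscle, and 10.46 to 10.66 and 10.75 to 10.93 for Schwann cells. Every one of these lists separated the groups, and their part in the slow fibre values was not tested. In whole muscle, more cells of a type and more RNA per cell cannot be told apart. Macrophage markers stood lower in 12 of 13 tested genes (median -0.19), with Adgre1, the F4/80 antigen, and Csf1r separated lower (-0.43 and -0.18). Counts of lower genes are read against 5902 of 13576 tested probe sets standing lower and 2.72% separated lower. Adipocyte markers stood higher in 5 of 6 with none separated, tendon and fibroblast markers lower in 8 of 10 with none separated, and satellite cell markers higher in 2 of 4. Few lymphocyte (3), neutrophil (2) and red cell (1) markers could be tested. Ighm, the heavy chain of immunoglobulin M, read 1894, 1399, 2516, 1267 and 1607 in WT and 2806, 3807 and 5039 in MGSKO and was separated higher (1.14, SE 0.26, adjusted p = 0.196). A red cell marker outside the list counts, because its probe set 1417714_x_at is annotated to several genes, read 1071, 1625, 1671, 1605 and 1704 in WT and 4112, 2954 and 4013 in MGSKO (1.24, SE 0.19, adjusted p = 0.0605). The part of blood cells in the other values was not tested.

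Fatty acid synthesis and elongation held 3 of the called genes, Mid1ip1, Aacs and Tecr, counting any probe set of a gene. By the brightest probe set of each gene 2 of 24 were called, against 0.147% of all tested probe sets. Of its 24 tested genes 14 stood higher, with a median of 0.08, and among the 17 not brighter in liver the median was 0.29. Thrsp, a homologue of Mid1ip1 that also promotes lipogenesis, read 1480, 1548, 1542, 1638 and 1521 in WT and 2592, 3135 and 1885 in MGSKO (0.67, SE 0.17, adjusted p = 0.239). Scd2, a stearoyl-CoA desaturase, was separated higher (0.55), while the groups overlapped for Fasn, fatty acid synthase (0.87, SE 0.26, adjusted p = 0.293). Of the genes of ketone body use kept in the same list, Bdh1 was separated lower (-0.84) and is brighter in liver. Fatty acid uptake and oxidation had a median of -0.06, or 0.02 over the 19 of 32 genes not brighter in liver. Cd36, the fatty acid transporter, was separated higher (0.36), and Slc25a20, the mitochondrial carnitine carrier, and Acads, short-chain acyl-CoA dehydrogenase, were separated lower (-0.67 each) and are brighter in liver.

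Branched-chain amino acid breakdown, which feeds carbon from leucine, isoleucine and valine into mitochondria, stood lower. Of 15 tested genes 12 were lower and 4 separated lower, against 2.72% of all tested probe sets, with a median of -0.37 and 0 calls by limma (7 lower and 1 higher with an unadjusted p under 0.05). The median was also -0.37 over the 13 genes not brighter in liver, and it ran from -0.42 to -0.28 over all alternatives tried. Acadsb, the dehydrogenase of short branched chains, read 1845, 2201, 2116, 1991 and 2147 in WT and 1333, 1256 and 915 in MGSKO (-0.81, SE 0.15, adjusted p = 0.122). Ivd, isovaleryl-CoA dehydrogenase, read 2323, 2844, 2626, 3011 and 2574 in WT and 1831, 2149 and 1752 in MGSKO (-0.48, SE 0.14, adjusted p = 0.288). Both had every MGSKO array under every WT array, as did Pccb, a subunit of propionyl-CoA carboxylase (-0.40), and Mut, methylmalonyl-CoA mutase (-0.42). Bcat2, the muscle transaminase that opens the pathway, was 1 of 3 that stood higher and the only one of these separated, with 776, 782, 925, 497 and 878 in WT and 1060, 1610 and 1169 in MGSKO (0.70, SE 0.22, adjusted p = 0.313). In tibialis Acadsb stood at -1.21 and Bcat2 at 0.03, and the list median was -0.26.

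Mitochondrial and sugar-burning genes differed by little. Of 64 tested subunits of oxidative phosphorylation 61 stood higher, but the median was 0.15, 7 were separated higher and none was called by limma (7 with an unadjusted p under 0.05). The sign is read against 56.5% of all tested probe sets higher, or 63.6% without those brighter in liver, and the 7 against 7.26% separated higher. Without WT replicate 2, 19 of the 64 were separated higher, where 9.12% of all probe sets were. Pyruvate dehydrogenase and its kinases had a median of 0.27, with Dlat and Pdha1, both subunits of the complex, separated higher (0.43 and 0.37). The citric acid cycle had a median of 0.10, with Idh2, mitochondrial isocitrate dehydrogenase, separated higher (0.39). Glucose uptake and glycolysis had a median of 0.16. Within it Slc2a3, the glucose transporter GLUT3, read 1349, 982, 1477, 1578 and 1347 in WT and 606, 621 and 750 in MGSKO (-0.97, SE 0.17, adjusted p = 0.0977). It was separated lower, as was Pfkfb3 (-0.61), which makes an activator of glycolysis, whereas Pkm, pyruvate kinase, and Slc16a3, the lactate exporter MCT4, were separated higher (0.39 and 0.94). Car4, a carbonic anhydrase of capillaries and muscle membranes, was separated higher beside the called Car14, with 880, 713, 740, 713 and 973 in WT and 2447, 1593 and 1287 in MGSKO (1.06, SE 0.21, adjusted p = 0.15).

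Several further genes were separated with an unadjusted p under 0.01 but were not called, with adjusted p from 0.0588 upwards. Tmem100, a membrane protein of endothelium and nerve, read 2050, 1053, 1706, 1287 and 1453 in WT and 589, 231 and 235 in MGSKO (-2.04, SE 0.31, adjusted p = 0.0588). Aqp4, the water channel of fast fibres, read 269, 470, 180, 278 and 258 in WT and 1051, 694 and 976 in MGSKO (1.52, SE 0.25, adjusted p = 0.0854). Nos1, neuronal nitric oxide synthase of the fibre membrane, read 1060, 837, 1049, 884 and 1591 in WT and 2085, 3026 and 3915 in MGSKO (1.42, SE 0.25, adjusted p = 0.0977). All 3 were separated without a call. Actc1, cardiac actin, and Dmpk, the kinase gene of myotonic dystrophy, stood at 1.34 (SE 0.29, adjusted p = 0.185) and 1.21 (SE 0.31, adjusted p = 0.251). Musk, the receptor kinase of the neuromuscular junction, Kcnab1, a potassium channel subunit, and Dusp26, a phosphatase, stood at -1.10, -1.30 and -1.44. Enox2, a surface oxidase, stood lower by both of its probe sets (-1.18 and -1.54, adjusted p = 0.0854 and 0.117). Slc12a2, a chloride cotransporter, stood at -1.07 (adjusted p = 0.264).

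Medians of lists that liver shares changed when probe sets brighter in liver were left out. Of the 1993 tested probe sets brighter in liver 1684 stood lower in MGSKO, with a median of -0.37, and 145 were separated lower and 14 higher. Among all 13576 tested probe sets 5902 stood lower, and 2.72% were separated lower and 7.26% higher. Hepatocyte markers stood lower in 16 of 16 with a median of -1.44, and none was separated. With probe sets brighter in liver left out, the median moved from -0.21 to 0.05 for chaperones and the unfolded protein response. It moved from -0.28 to 0.01 for glutathione and peroxide defence, and from -0.37 to 0.14 for cholesterol synthesis. The later medians cover fewer genes, 7 of 22, 11 of 24 and 4 of 9, and the part of liver transcripts in these changes was not tested. These lists had 0 calls, so no direction is given for them. Proteasome subunits (0.12), cytoplasmic ribosomal proteins (0.06), circadian clock genes (0.11) and hypoxia-inducible factor targets (0.20) had 0 calls as well.

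The called changes were largely seen in tibialis, a muscle whose arrays carried few liver transcripts and share no array with these. Of 13576 probe sets tested there 190 were called (1.4%). Of the 20 gastrocnemius calls 19 were tested in tibialis, 18 had the same sign and 15 were called. Odc1 stood at -1.03 in tibialis and -2.05 in gastrocnemius by 1438761_a_at, and 1700001O22Rik at -1.62 and -1.70. Ppp1r1a stood at -3.05 against -1.68, Gdap1 at -1.41 against -1.12, and Ddit4l at -1.09 against -1.37. Among those that rose, Myl3 stood at 2.0 against 1.11, Aacs at 1.81 against 1.28, Tecr at 0.89 against 0.86 and Mid1ip1 at 0.94 against 1.35. Speg differed in sign, at -0.18 against 1.15, and Fgfbp1 was too dim to test in tibialis. A contrast of both effects called none of these 20, with adjusted p = 0.229 for Gys1, 0.270 for Speg and 0.370 for Myl3. That contrast called 2 probe sets in all (0.0147%), both of Slc38a10, while 10% had an unadjusted p under 0.05. A miss of the threshold does not show that the muscles responded alike.

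In the other direction, 182 of the 190 tibialis calls were tested in gastrocnemius, 162 with the same sign and 92 with the same sign and an unadjusted p under 0.05 (11.4% of all probe sets had such a p in either direction). Ifi30, a lysosomal thiol reductase, had the highest rise in tibialis, at 3.19, and read 1027, 575, 610, 660 and 1123 in WT gastrocnemius and 3675, 2850 and 1732 in MGSKO (1.71, SE 0.30, adjusted p = 0.0932). Wnt4, a Wnt ligand, stood at -2.30 in tibialis and -0.82 in gastrocnemius, where it was separated lower (adjusted p = 0.120). Qprt, an enzyme of NAD synthesis, and G0s2, an inhibitor of fat breakdown, rose in tibialis (2.14 and 1.92) and overlapped between groups in gastrocnemius. Slow fibre genes had a median of 0.20 in tibialis, where 11 of 17 stood higher, against 7180 of 12749 probe sets tested in both muscles. Myl3 stood at 2.0 and Csrp3 at 1.23 there, whereas Tnnt1 stood at -0.64 and Myh7 at -0.20. The contrast called 0 of the 17 slow fibre genes.

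**Figure D4:**
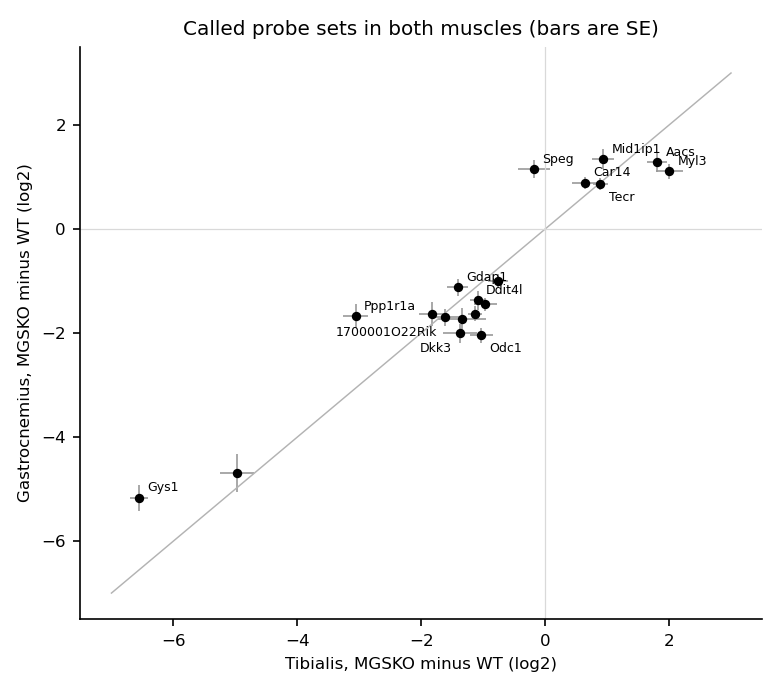
The 19 gastrocnemius calls that were tested in tibialis, with the MGSKO minus WT difference in tibialis on the horizontal axis and in gastrocnemius on the vertical axis, both log2; bars are SE and the line marks equal differences. All but Speg have the same sign, and probe sets without a symbol and second probe sets of a gene are unlabelled.

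Gastrocnemius of GSL30 mice, in which glycogen synthase is raised, gave the opposite sign for most slow fibre genes. That comparison used its own WT arrays at 8 months, so age, mouse line and genotype cannot be told apart in any difference from MGSKO. It called 585 of 13576 probe sets (4.31%), and a contrast of the MGSKO effect minus the GSL30 effect called 312 (2.3%). Liver probe sets stood at 1.13 to 2.70% of the liver level in those 10 arrays. The contrast called 10 of the 17 slow fibre genes, all with the MGSKO effect above the GSL30 effect. Myh7 read 4159 ± 802 in WT and 1746 ± 509 in GSL30 and fell by 1.25 there (SE 0.19, n = 5 and 5, adjusted p = 0.00636), and the contrast was 2.32 (SE 0.37, adjusted p = 0.00241). Myl3 fell by 0.89 in GSL30 (adjusted p = 0.0191), from 12180 ± 1439 to 6740 ± 2019, with a contrast of 1.99 (SE 0.24, adjusted p = 2.38e-04). Tnnt1 fell by 1.28 and Tpm3 by 1.35, with contrasts of 2.43 and 2.22 (adjusted p = 0.00296 and 0.00640). The contrasts of these genes were larger than the spread between arrays, although in MGSKO alone only Myl3 was called.

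Vessel markers also differed between the lines by the contrast, although none was called in MGSKO alone. In GSL30 alone 6 endothelial and 5 smooth muscle markers were called, all lower. The contrast called 7 of 13 endothelial markers and 5 of 9 smooth muscle markers, all with the MGSKO effect higher. Myh11 fell by 1.04 in GSL30 (SE 0.13, adjusted p = 0.00323), with a contrast of 1.97 (SE 0.18, adjusted p = 1.94e-05). Cdh5 fell by 0.75 in GSL30 (SE 0.12, adjusted p = 0.00706), with a contrast of 1.95 (SE 0.26, adjusted p = 7.39e-04). Both carbonic anhydrases had opposite signs in the 2 lines. Car14 fell by 0.82 in GSL30 (adjusted p = 0.0193) with a contrast of 1.71. Car4, not called in MGSKO, fell by 0.85 in GSL30 (adjusted p = 0.0156) with a contrast of 1.91. Of the 20 called probe sets 8 were also called in GSL30 and 15 passed the contrast. The contrast uses the same MGSKO and WT arrays on which the 20 were called. The count of 15 was thus partly fixed by that choice and does not test it. Gys1 and Ppp1r1a had opposite signs, the latter at 0.74 in GSL30 (adjusted p = 0.0267). Dkk3, Fgfbp1 and Mid1ip1 moved the same way in both lines, with Dkk3 at -1.07, Fgfbp1 at -0.72 and Mid1ip1 at 0.89 in GSL30 (adjusted p = 0.0267, 0.0155 and 0.0106). Odc1 stood at 0.08 in GSL30, with a contrast of -2.12 (SE 0.23, adjusted p = 1.02e-04).

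**Figure D5:**
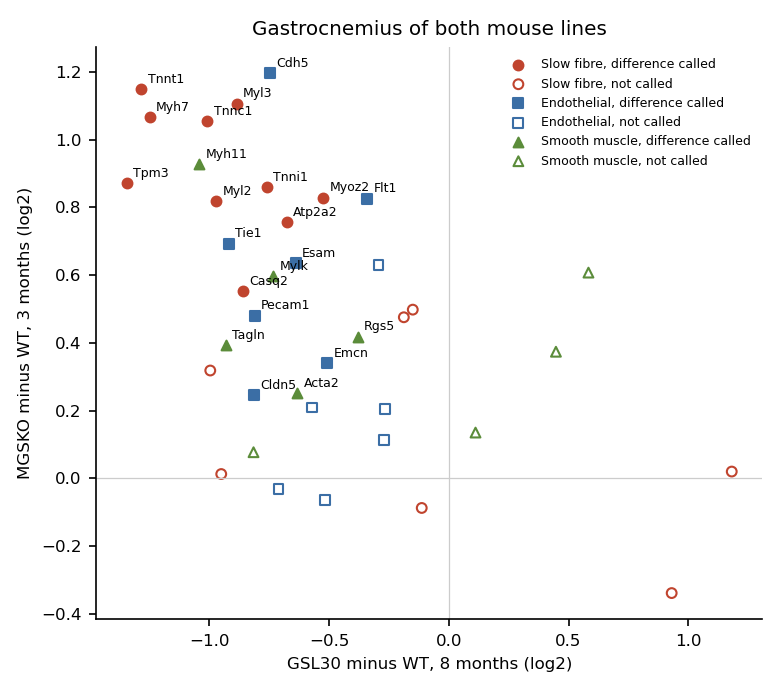
MGSKO minus WT at 3 months (vertical) against GSL30 minus WT at 8 months (horizontal), both log2, for tested slow fibre, endothelial and smooth muscle genes. Filled symbols passed the contrast of both effects (10, 7 and 5 genes), and all of these lie above 0 for MGSKO and below 0 for GSL30.

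Genes that lie near Gys1 on the chromosome were looked at apart from the rest. Within 5 Mb of Gys1 on chromosome 7, 84 probe sets of 67 genes were tested and the 2 called were those of Gys1. Separated probe sets made up 17.9% (15), against 9.98% of all, and both Gys1 probe sets are counted among the 84 and the 15. Rras, a small GTPase, and Pih1d1, a chaperone adaptor, were separated higher (0.74, adjusted p = 0.0932, and 0.75, adjusted p = 0.199), and Ptov1 was separated lower (-0.80, adjusted p = 0.302).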

How the data were processed

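The deposited values of 34 arrays (22690 probe sets, 64 of them controls) were intensities on a linear scale, used as the authors deposited them; each array's trimmed mean, with 2% dropped at each end, was about 1000. Per the labels, RNA was extracted with TRIzol and RNeasy and targets were made from about 5 µg of muscle RNA; which software summarised the probes was not given in the sources used here. Log2(value + 50) was fitted per comparison with limma 3.58.1 (lmFit, eBayes) in R 4.3.3, with data.table version 1.17.8, without controls and without the dimmest 40% of probe sets (mean log2), with Benjamini-Hochberg adjustment. The fit was tested on simulated data. Of all probe sets 20393 had 1 symbol, 691 several and 1606 none. Array pairs correlated at 0.897 to 0.980 and shared at most 0.128% identical values. The number of arrays limits the precision.

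The members and gene lists (28, and 12 of cell type markers) were chosen with earlier results of these data known. A list is described over the brightest tested probe set of each gene. Named were both synthase genes, called genes, tested members of the glycogen, slow and fast fibre lists, up to 4 separated members of each other list, separated genes short of the threshold, leading tibialis genes, genes of the contrasts and genes near Gys1; Fasn, Foxo3, Mtor, Scd2 and Thrsp were chosen after their values were seen, as were the counts of separated genes without some arrays. Alternatives were pseudocounts of 1 and 200, a common median or quantile normalization, other filters, 1 fit of all 34 arrays, a trended robust eBayes, array weights, 3 ways of treating liver transcripts, and each array left out. Figures were drawn with matplotlib 3.10.9.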

Additional observations from a re-analysis of the deposited data

Results flagged for a closer look

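WT replicate 2 lay apart from the other 4 WT arrays in 3 measures, by the gap to its nearest neighbour over the range of the group. Its mean log2 level was 16.04 for fast fibre genes, with the next WT array at 14.88, and 16.91 for skeletal muscle fibre markers, with the next at 15.49. Its Alb intensity was 245380, with the next WT array at 55691. WT replicate 3 lay apart for Schwann cell markers, at a mean of 10.66 with the next WT array at 10.47. In all 63 measures were examined this way and 4 stood out, while chance gives about 1 in 20.

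The MGSKO effect on Slc38a10, a member of an amino acid transporter family, differed between gastrocnemius and tibialis for 2 of its probe sets by the contrast of both effects. Its probe sets 1429979_a_at, 1429980_x_at and 1456241_a_at, also tested in gastrocnemius, were not called by the contrast. The contrast (gastrocnemius minus tibialis) was -1.32 (SE 0.18, adjusted p = 0.0340 by limma) for 1427294_a_at and -1.37 (SE 0.21, adjusted p = 0.0411) for 1427295_at. By the first probe set Slc38a10 stood at 1.61 in tibialis and 0.29 in gastrocnemius.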

How the results depend on the processing

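No paired analysis was possible because the labels number the 8 arrays in a single run across both groups, so that MGSKO and WT arrays share no number. The count of 20 called probe sets became 10 with a common median, 7 without the filter on dim probe sets, 306 in 1 fit of all 34 arrays, 139 with array weights and 4 without the arrays of high hepatocyte score. Leaving out single arrays gave 7 to 25, with 25 without WT replicate 2 and 7 to 10 without any of the others. The count of 19 without liver-bright probe sets became 7, 197, 117 and 5 in the last 4 of those settings and 7 to 24 with single arrays left out. The count of 2 for the contrast with tibialis became 0 by limma with a common median and without the filter (1726 and 1794 with an unadjusted p under 0.05), 1 with a pseudocount of 1 and without the arrays of high hepatocyte score, 6 with a pseudocount of 200, in 1 fit of all 34 arrays and with a trended robust eBayes, 5 with the 60th percentile filter, 16 with array weights, and 0 to 7 with single arrays left out. The split of the 20, 6 higher and 14 lower, was 1 and 9 with a common median, 9 and 14 with quantile normalization, 10 and 15 with a pseudocount of 200 or a trended robust eBayes, 10 and 13 with the 60th percentile filter, 0 and 7 without a filter, 179 and 127 in the fit of 34 arrays, 76 and 63 with array weights, and 0 and 4 without the arrays of high hepatocyte score. With single arrays left out it was 11 and 14 without WT replicate 2, 1 and 9 without MGSKO replicate 1, and 0 higher with 7 to 9 lower in the other 6 fits. The common median moved the median of all probe sets to 0.11. Both Gys1 probe sets, the 3 of Odc1, Dkk3 by 1417312_at and 1700001O22Rik were called in all 8 fits without 1 array; the other called probe sets were called in 1 to 3 of them. Over 2661 fits of named probe sets that were separated or called, 134 lost a call and 111 gained one. None changed sign, but all of these probe sets were separated. Leaving out arrays or changing the pseudocount, filter, array weights or eBayes could therefore not reverse a sign. Only the normalizations and the covariate could have done so. Of 837 refits of list medians 56 moved beyond the spread. The cause of these changes was not tested. With 3 and 5 arrays, small changes cannot be separated from array spread.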

Other observations

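Of 17 tested genes of excitation and calcium release 4 were separated higher, against 7.26% of all tested probe sets, and none was called by limma (5 with an unadjusted p under 0.05). Cacng1 and Cacnb1, subunits of the calcium channel that senses depolarisation in the fibre membrane, stood at 0.78 and 0.56, Camk2b, a calcium-dependent kinase, at 0.80, and Hrc, a calcium-binding protein of the sarcoplasmic reticulum, at 0.36, and the median of the list was 0.12. Chrna1, a subunit of the acetylcholine receptor, was separated higher (0.55) and Myog, a muscle regulatory factor, separated lower (-0.60). Mfn1 and Mfn2, which fuse mitochondria, were separated higher (0.36 and 0.37), and Tfb1m, a factor for mitochondrial ribosomes, was separated lower (-0.71). Dkk2, a Wnt modulator related to Dkk3, was separated higher in gastrocnemius (1.14, SE 0.23, adjusted p = 0.144 by limma) and stood at -0.93 in tibialis. It read 407, 199, 341, 316 and 480 in WT gastrocnemius and 842, 785 and 783 in MGSKO.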
